A study of Homo sapiens with 18 samples.

Results

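Retinoic acid is made from vitamin A in 2 oxidation steps, destroyed by its own set of enzymes, and read out by nuclear receptors. The 10 genes described here cover that route: RDH10, DHRS3, ALDH1A1, ALDH1A2, ALDH1A3, CYP26A1, CYP26B1, CRABP1, CRABP2 and RARB. They were chosen as a fixed list of names, with earlier results of these data known. Counts among them, and among the 2 further lists below, are therefore descriptive when set beside shares of all genes. For each gene the probe set named for that gene alone with the highest mean signal was used, and 9 of the 10, among 19775 genes in all, had one. CRABP1, a retinoic acid binding protein, had no probe set naming it alone in the annotation used and was not analysed here.

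The cells were H9, a human embryonic stem (ES) cell line, profiled on 18 one-colour Affymetrix expression arrays in 6 groups of 3 RNA pools. The groups were undifferentiated ES cells, day 6 embryoid bodies (cell aggregates grown in suspension), bFGF-treated and untreated neural epithelial cells at day 10, and bFGF-treated and untreated neural epithelial cells at day 17. The untreated groups received no added factor according to the labels. The bFGF groups received basic fibroblast growth factor from day 6 onwards, labelled as 20 ug/ml at day 10 and 20 ng/ml at day 17, a difference in unit that the labels leave unresolved. All groups come from 1 cell line and each array holds a pool. By the labels, day 6 pools 1 and 2 came from cell passages 27, 28 and 31, as did ES pool 1, and both groups' pool 3 from passages 26, 28 and 29. ES pool 2 came from passages 24, 25 and 26, so some pools share their passages. No passages are used here for the neural epithelial groups, and nothing says that any pools came from separate cultures. The p-values therefore measure the spread between these pools, which may be technical.

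In vertebrate embryos RDH10 oxidises retinol to retinaldehyde, and DHRS3 reduces retinaldehyde back to retinol. The 3 ALDH1A enzymes turn retinaldehyde into retinoic acid, and the CYP26 enzymes hydroxylate retinoic acid so that it is cleared. CRABP2 carries retinoic acid to the nucleus, where RARB and its relatives, paired with RXR proteins, bind DNA at retinoic acid response elements. CYP26A1, DHRS3 and RARB are themselves switched on by retinoic acid in many cell types. In the embryo, retinoic acid posteriorises the neural tube at hindbrain and spinal cord levels and shapes the eye and forebrain.

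Response elements of this kind are direct repeats of a hexamer. RefSeq promoter windows (GRCh38.p14, 250 bases before to 50 after a gene's start) were available for 9 of the 10 genes, in 16 windows. Both strands were searched for 2 copies in the same orientation of the hexamer AGGTCA or its variants, which were AGTTCA, the variant GGTTCA and the variant GGGTCA. The copies could be separated by any 1, 2 or 5 bases. The repeat spaced by 5 bases lay in 2 of the 16 windows, 1 of RARB and 1 of CYP26A1, and in 0.0883% of all 35116 windows. The hexamers were picked knowing that response elements had been described in these genes, so the matches are a description of the sequence. Both windows are printed because their genes changed in opposite directions at day 10. The RARB window is chr3:25428013-25428312 and the CYP26A1 window chr10:93073643-93073942, both on the plus strand, and capitals mark the repeat.
RARB: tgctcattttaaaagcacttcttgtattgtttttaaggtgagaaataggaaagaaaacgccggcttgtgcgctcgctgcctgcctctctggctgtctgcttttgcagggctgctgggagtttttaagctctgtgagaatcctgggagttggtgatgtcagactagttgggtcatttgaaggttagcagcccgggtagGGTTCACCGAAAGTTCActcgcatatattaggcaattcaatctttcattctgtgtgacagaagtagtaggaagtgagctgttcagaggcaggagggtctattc
CYP26A1: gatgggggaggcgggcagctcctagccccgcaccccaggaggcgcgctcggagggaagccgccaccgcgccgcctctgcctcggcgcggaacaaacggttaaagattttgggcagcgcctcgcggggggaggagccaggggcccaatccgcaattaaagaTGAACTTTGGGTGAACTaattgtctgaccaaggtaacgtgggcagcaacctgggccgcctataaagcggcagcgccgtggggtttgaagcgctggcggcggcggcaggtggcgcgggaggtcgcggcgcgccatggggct

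In RARB the repeat reads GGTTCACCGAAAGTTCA on the gene's own strand, from 53 to 37 bases before the start. In CYP26A1 it reads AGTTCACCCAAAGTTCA on the opposite strand, from 90 to 74 bases before the start. Repeats spaced by 1 or 2 bases were in 0 of the 16 windows, and in 0.131% and 0.0399% of all windows. So no matches of different spacing overlapped in them.

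Signals are linear array intensities scaled by the authors to a common level. Changes are differences of log2(signal + 16), a scale that understates the change of dim genes, given with their standard error. A gene is said to have risen or fallen where the adjusted p was under 0.05 in limma over all 19775 genes. Signals of different probe sets are not compared with each other. On 4 arrays, pool 2 of each neural epithelial group, low signals were raised: their median signal was 48.7 to 50.8, against 25.2 to 32.7 on the other 14. Neural progenitor markers (PAX6, SOX1, SOX2, LHX2, HES5 and FABP7) summed to 18184 to 32090 on the 12 neural epithelial arrays. They summed to 6099 to 7480 in ES cells and 10245 to 12395 at day 6, where SOX2 alone averaged 6453 and 9030. ES cell markers (5 of 6 measured) summed to 11358 to 11824 at day 6, against 21680 to 23715 in ES cells. By these sums the labels and the defining markers matched.

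**Figure D1:**
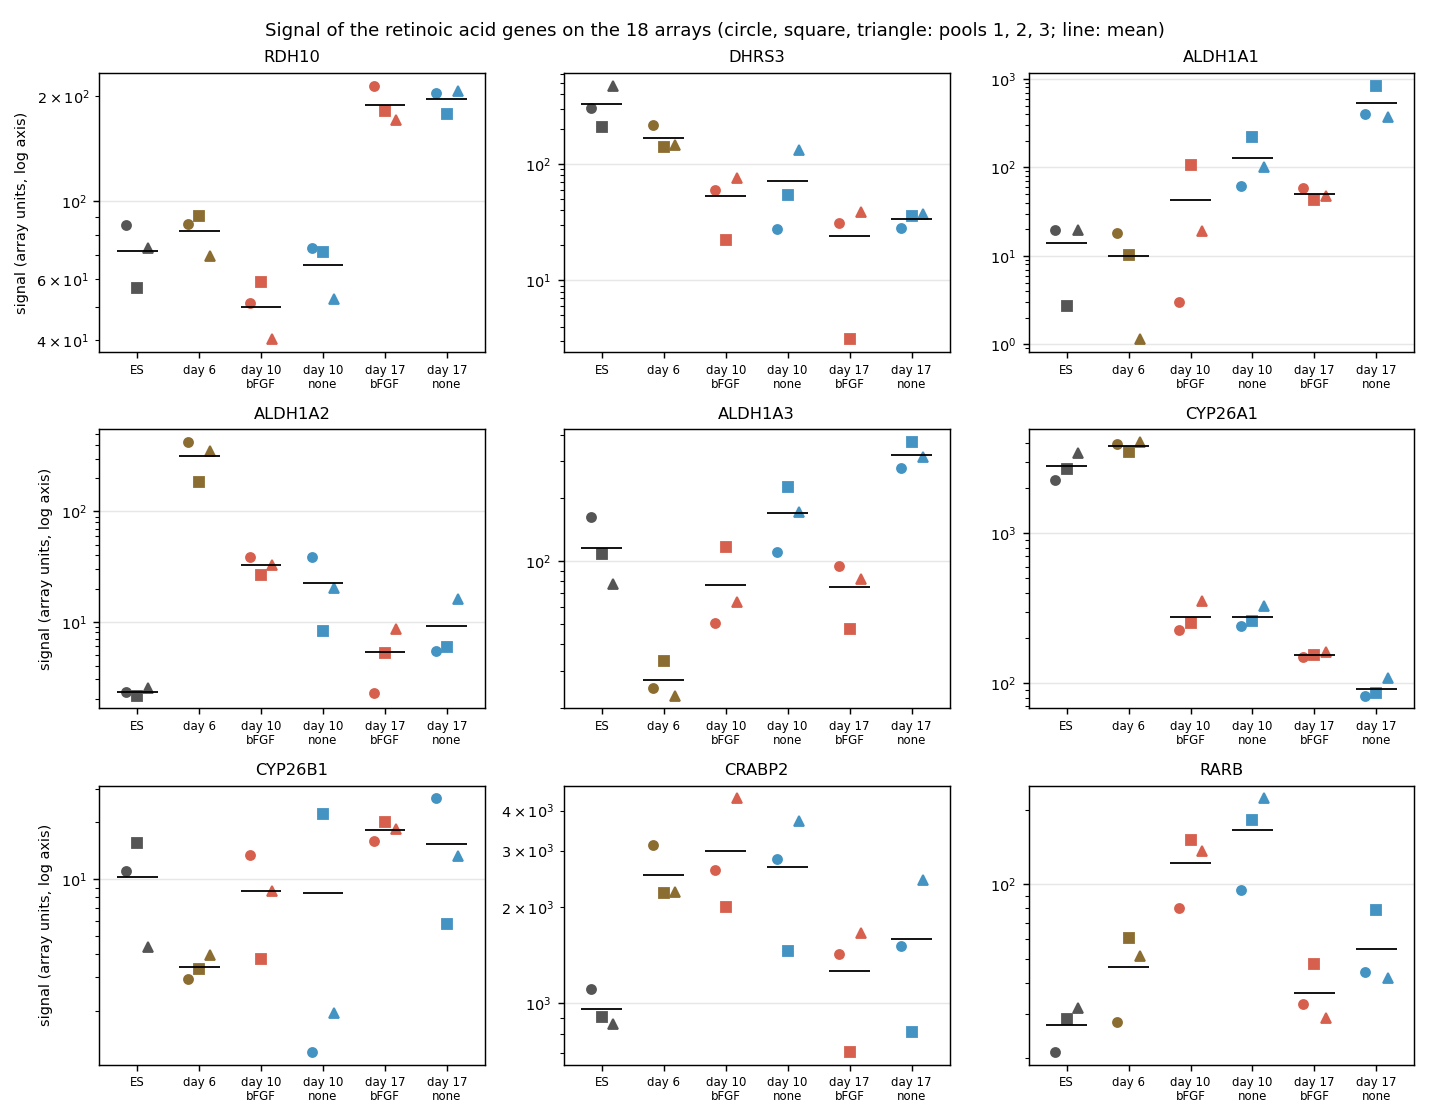
Signal (array units, log axis, a range of its own for each gene) of the 9 measured genes in the 6 groups; symbols are the 3 pools and lines are group means. ALDH1A2 stands out at day 6, CYP26A1 is lower in all neural epithelial groups, and ALDH1A1 and ALDH1A3 are highest in untreated day 17 cells.

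At the first oxidation step, RDH10 did not pass the test at day 6 or day 10 and rose at day 17. It read 204, 177 and 206 in untreated day 17 cells, against 73.3, 71.7 and 52.5 in untreated day 10 cells (log2 change 1.38 ± 0.19, adjusted p = 0.000905). All 3 day 17 pools lay above all 3 day 10 pools. With bFGF it read 213, 181 and 170.1 at day 17, and the difference from untreated day 17 cells was -0.06 (95% interval -0.47 to 0.35). ES cells at 85.5, 56.3 and 73.6, day 6 bodies at 85.9, 90.6 and 69.7, and both day 10 groups did not differ beyond their spread from their neighbours in the order of levels, and none of these groups reached the day 17 range. In bulk RNA, fewer cells that express a gene and less RNA per cell cannot be told apart, here and in all that follows. Of the 3 other RDH10 probe sets, the brightest was at 91.3 to 119 in untreated day 17 cells, against 37.6 to 63.1 in untreated day 10 cells (0.90 ± 0.24, adjusted p over all probe sets 0.0951). The remaining pair of probe sets stayed at or below 37.8 on all arrays.

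DHRS3, which runs that step backwards, had its highest mean in ES cells and its lowest in bFGF-treated day 17 cells. It read 303, 209.7 and 471 in ES cells, 217, 139 and 146 at day 6, 27.7, 54.5 and 132 in untreated day 10 cells, and 28.2, 35.9 and 37.3 in untreated day 17 cells. Each step's estimate was negative, yet none passed the test: the log2 changes were -0.86 ± 0.46, -1.23 ± 0.46 and -0.63 ± 0.46 (adjusted p = 0.490, 0.150 and 0.787). Untreated day 10 and day 6 pools did not overlap, and leaving out untreated day 10 pool 3 gave -1.70 with an adjusted p of 0.0458. The spread between pools was wide, and bFGF-treated day 17 pool 2 read 3.11, against 31.1 and 38.5 in pools 1 and 3.

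The 3 enzymes that make retinoic acid took different courses. Between ES cells and day 6, 1 of the 9 genes rose and 1 fell, both of this family, where 2.19% of all genes rose and 1.66% fell (3.85% in either direction). The pools of day 6 lay wholly above those of ES cells for 3 genes, ALDH1A2, CYP26A1 and CRABP2, and wholly below for 2, ALDH1A3 and CYP26B1, as they did for 10.1% and 9.77% of all genes. ALDH1A2 read 425, 185 and 351 at day 6, against 2.29, 2.14 and 2.52 in ES cells (4.12 ± 0.31, adjusted p = 4.31e-07). ES signals this low have no detection call, so the size of the rise depends on the scale: it was 6.52 with a pseudocount of 1, 2.48 with a pseudocount of 64 and 2.70 with probe sets averaged, past the test in each. ALDH1A3 went the other way, to 24.8, 33.3 and 22.8 at day 6, against 161, 108 and 77.4 in ES cells (-1.57 ± 0.31, adjusted p = 0.00714). ALDH1A1 was low in both, at 18.4, 10.3 and 1.14 at day 6 and 19.6, 2.73 and 19.7 in ES cells (-0.21 ± 0.56, adjusted p = 0.970).

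ALDH1A2 is the main retinoic acid producer of paraxial mesoderm in mouse embryos. Markers of that tissue (5 of 5 measured) summed to 111 to 151 at day 6, against 85.0 to 147 in ES cells. TBX6 averaged 20.0 at day 6 and 28.7 in ES cells, MEOX1 7.72 and 10.5, TCF15 3.52 and 29.9, and MESP1 22.0 and 7.57. TBXT, a marker of the primitive streak as well, averaged 83.6 at day 6 and 35.4 in ES cells, without overlap (71.4 to 99.3 and 27.1 to 50.6). Without detection calls, the day 6 means of MEOX1 and TCF15 were too low to be told from background. The part of such cells in the rise of ALDH1A2 was not tested.

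From day 6 to untreated day 10 ALDH1A2 fell, while ALDH1A1 and ALDH1A3 rose. Among the 9 genes, 3 rose and 2 fell, where 3.73% of all genes rose and 2.64% fell (6.37% in either direction). Day 10 pools lay wholly above day 6 pools for 3 genes and wholly below for 3, as for 13.6% and 9.67% of all genes. ALDH1A2 dropped to 38.9, 8.27 and 20.1 at day 10, against 425, 185 and 351 at day 6 (-3.14 ± 0.31, adjusted p = 7.28e-06). ALDH1A3 rose to 111, 224 and 170.3, against 24.8, 33.3 and 22.8 (2.06 ± 0.31, adjusted p = 0.000507). ALDH1A1 rose to 61.1, 218 and 102, against 18.4, 10.3 and 1.14 (2.37 ± 0.56, adjusted p = 0.0150), and the pools of both days lay apart for all 3 enzymes. The call on ALDH1A1 was lost with a pseudocount of 1 (adjusted p = 0.0511), without day 6 pool 3 (0.0802) and without untreated day 10 pool 2 (0.0798).

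By day 17 without bFGF, ALDH1A1 and ALDH1A3 reached their highest levels. ALDH1A1 read 402, 833 and 368 at day 17, against 61.1, 218 and 102 at day 10 (2.00 ± 0.56, adjusted p = 0.0912). ALDH1A3 read 278, 368 and 313, against 111, 224 and 170.3 (0.90 ± 0.31, adjusted p = 0.229). For both genes, and for RDH10, the day 17 pools lay wholly above the day 10 pools, as for 7.29% of all genes, although neither ALDH1A change passed the test. ALDH1A1 passed with a pseudocount of 64 (1.65, adjusted p = 0.0127) and without the 4 arrays with raised low signals (2.07, adjusted p = 0.0263). ALDH1A2 was at 5.45, 5.90 and 16.03, close to the bottom of its range. Some markers of other cells were higher in the same step. The endoderm and yolk sac list (6 of 6 measured) summed to 1078 to 1763 at day 17 and 149 to 411 at day 10. AFP averaged 830.0 and 96.0 and TTR 389 and 22.7. The rest of that list was dim and mixed: SOX17 averaged 50.7 at day 17 and 35.9 at day 10, and APOA1 17.3 and 10.2. FOXA2 (13.9 and 23.6) and GATA4 (42.6 and 58.3) had lower means at day 17. The neuronal list (5 of 6 measured) summed to 10703 to 12591 at day 17 and 3119 to 6326 at day 10. Their part in these levels was not tested.

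CYP26A1, which breaks down retinoic acid, read 3954, 3473 and 4065 at day 6, against 2265, 2707 and 3417 in ES cells (0.47 ± 0.21, adjusted p = 0.337), so the pools lay apart but the change did not pass. At day 10 it was at 239.7, 261 and 328, a drop from day 6 of -3.73 ± 0.21 on the log2 scale (adjusted p = 4.87e-08). At day 17 it was lower again, at 82.3, 86.0 and 107 against 239.7, 261 and 328 at day 10 (-1.43 ± 0.21, adjusted p = 0.00119). The mean at untreated day 17 was lower than the day 6 mean 41.7-fold, and the groups along this course did not overlap. Between day 6 and day 10 the epithelial markers EPCAM and CDH1 had lower means too: EPCAM averaged 507 at day 10 and 3630 at day 6, and CDH1 347 and 3867. They did not rise with CYP26A1 from ES cells to day 6, since EPCAM averaged 5360 and CDH1 4015 in ES cells. The surface ectoderm list that holds them (5 of 6 measured) summed to 749 to 1156 at day 10 and 6639 to 8163 at day 6, while its keratins KRT5, KRT14 and KRT15 averaged 3.16 to 5.57 at day 6. ES cell markers (5 of 6 measured) fell in the same step, to sums of 3581 to 3804 at day 10, against 11358 to 11824 at day 6. Among them ZFP42 averaged 36.9 at day 10 and 481 at day 6, and DNMT3B 1232 and 6645. The part of these cells in the result was not tested.

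CYP26B1, which does the same job in hindbrain and limb, was dim everywhere. Its probe set ranged from 1.21 to 26.8 over the 18 arrays, with group means of 18.1 in bFGF-treated day 17 cells down to 3.40 at day 6. All neighbouring groups in that order overlapped, and its other probe set ranged from 1.90 to 26.5. It passed the test in 0 of the 6 comparisons, with 0 of them at an unadjusted p under 0.05 in limma. Without detection calls, signals this low cannot be told from background.

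CRABP2 was bright in every group. It read 3125, 2207 and 2231 at day 6, against 1112, 905 and 861 in ES cells (1.37 ± 0.43), and the pools did not overlap, but the adjusted p was 0.102. It was 2818, 1458 and 3708 in untreated day 10 cells and 1508, 816 and 2431 in untreated day 17 cells, with log2 changes of -0.00 ± 0.43 from day 6 and -0.78 ± 0.43 from day 10 (adjusted p = 0.997 and 0.634). In all 4 neural epithelial groups pool 2 was lowest and pool 3 highest. The untreated day 10 and day 17 ranges overlapped, while the bFGF-treated ones did not (2003 to 4370 at day 10 and 706 to 1663 at day 17). The day 6 change passed when only ES and day 6 arrays were fitted (adjusted p = 0.0180) and without the 4 arrays (0.00773), with the same estimate of 1.37. With the pool number as a block, which pairs only part of the ES and day 6 arrays, it was 1.41 (adjusted p = 0.0319), where 4.5% of all genes passed.

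RARB, the receptor whose window is printed above, peaked at day 10. It read 94.9, 181 and 222 in untreated day 10 cells, against 27.9, 60.6 and 51.2 at day 6 (1.51 ± 0.31, adjusted p = 0.00635). It then came down to 44.5, 78.7 and 42.1 at day 17, against 94.9, 181 and 222 at day 10 (-1.32 ± 0.31, adjusted p = 0.0371). Neither pair of groups overlapped. CYP26A1 and RARB were the 2 genes whose day 17 pools lay wholly below the day 10 pools, as for 6.32% of all genes. ES cells had 21.2, 28.8 and 31.7, and day 6 did not differ from them beyond the spread (0.50 ± 0.31, adjusted p = 0.597). So CYP26A1 and RARB, the 2 genes with the 5-base-spaced repeat, moved in opposite directions between day 6 and day 10, and both fell between day 10 and day 17.

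Of the 4 other RARB probe sets, the brightest had 69.7 to 98.8 in untreated day 10 cells and 23.5 to 42.4 at day 6 (0.98, adjusted p over all probe sets 0.142). On the day 6 and untreated day 10 arrays alone the rise of RARB missed the threshold (adjusted p = 0.0640). The mean over all of a gene's probe sets gave 0.82 for RARB at day 10 (adjusted p = 0.103) and -0.61 at day 17 (adjusted p = 0.518). Leaving out 1 array ended the call on the day 17 fall of RARB in 4 cases: pool 2 (adjusted p = 0.126) and pool 3 (0.195) of untreated day 10 cells, and pool 1 (0.161) and pool 3 (0.159) of untreated day 17 cells. The fit without the 4 arrays gave 0.0850.

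**Figure D2:**
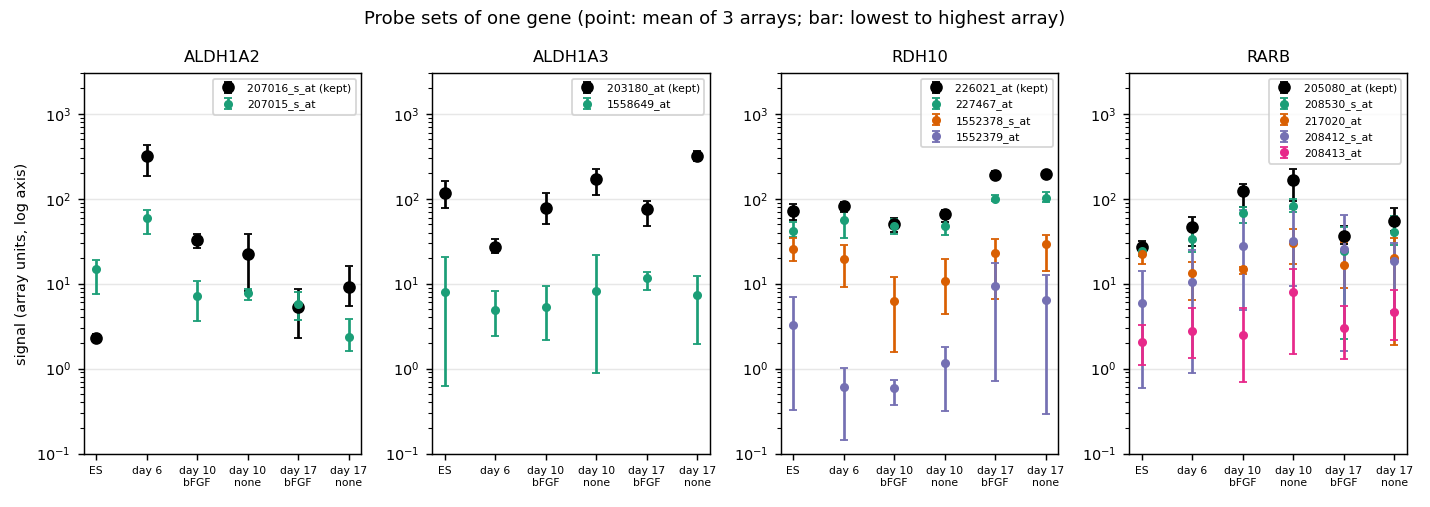
Signal (array units, log axis) of every probe set of the 4 genes in which other probe sets were set beside the kept one, in the 6 groups; points are means of 3 arrays and bars run from the lowest to the highest array. Both ALDH1A2 probe sets are highest at day 6, while the second ALDH1A3 probe set stays between 0.619 and 21.9 on all arrays.

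The second ALDH1A2 probe set was at 38.4 to 74.2 at day 6, against 7.49 to 18.7 in ES cells (1.28, adjusted p over all probe sets 0.00296). It fell as well at day 10 (-1.64, adjusted p over all probe sets 0.000241). The second ALDH1A3 probe set did not follow the first (-0.12 at day 6), and with both averaged the day 6 fall was -0.84 (adjusted p = 0.185).

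Over the 3 untreated steps, the last, day 10 to day 17, had 1 rise (RDH10) and 2 falls (CYP26A1 and RARB) among the 9 genes, where 1.45% of all genes rose and 0.536% fell. Equal pool numbers were taken to pair the neural epithelial arrays, because their deviations from the group means correlated. A block for the pool number brought the share of all genes past the test in this step to 3.56%, against 1.99% without it. The 3 gene calls held with the block. They were lost when only the day 10 and day 17 untreated arrays were fitted (adjusted p = 0.0856 for RDH10, 0.0856 for CYP26A1 and 0.279 for RARB). The median log2 change of the 9 genes was 0.17 at day 6, -0.00 at day 10 and -0.56 at day 17, beside medians of -0.00, 0.09 and -0.01 over all genes.

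**Figure D3:**
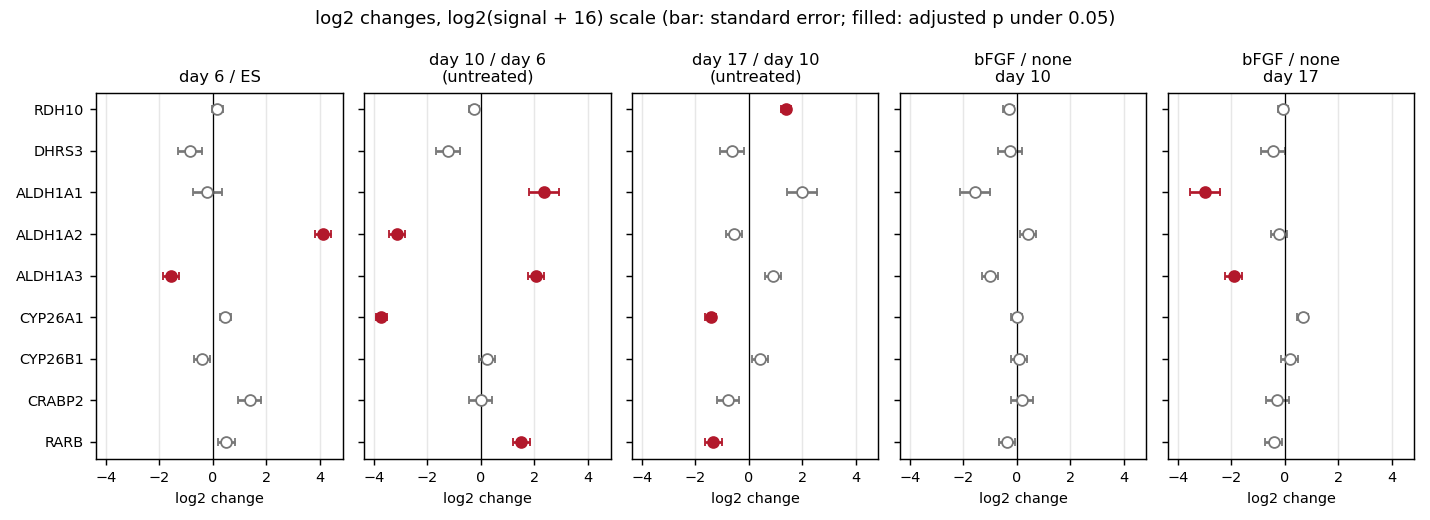
log2 changes of the 9 genes on the log2(signal + 16) scale in 5 comparisons, each the later or bFGF-treated group over the other; bars are standard errors and filled points passed an adjusted p of 0.05. Filled points lie furthest from 0 for ALDH1A2 and CYP26A1 in the first 2 panels, and in the bFGF panels only ALDH1A1 and ALDH1A3 at day 17 are filled.

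The next question was whether bFGF altered these genes. At day 17 ALDH1A1 and ALDH1A3 were lower with it, so 2 of the 9 fell and 0 rose, where 0.157% of all genes fell and 0.182% rose. ALDH1A1 read 57.9, 43.4 and 47.9 with bFGF, against 402, 833 and 368 without it (-2.97 ± 0.56, adjusted p = 0.0282). The treated mean was lower 10.7-fold, and the ratio of treated to untreated signal was 0.144, 0.0521 and 0.130 in pools 1, 2 and 3. ALDH1A3 read 94.5, 47.6 and 82.4 with bFGF, against 278, 368 and 313 without it (-1.92 ± 0.31, adjusted p = 0.0110). Its treated mean was lower 4.27-fold, and for both genes the groups did not overlap, as for 5.07% of all genes in this direction. ALDH1A2, the remaining enzyme, was near the bottom of its range in both groups, at 2.28, 5.26 and 8.58 with bFGF and 5.45, 5.90 and 16.03 without.

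The ALDH1A1 call was lost without any 1 of the 6 day 17 arrays (adjusted p = 0.0671 to 0.146), with estimates of -3.18 to -2.61. ALDH1A3 lost its call without bFGF-treated day 17 pool 2 (adjusted p = 0.0596), untreated day 17 pool 2 (0.0610) or pool 3 (0.0515), and without the 4 arrays (-1.58, adjusted p = 0.0648). With both of its probe sets averaged ALDH1A3 gave -0.83 (adjusted p = 0.656). Fitted on the 6 day 17 arrays alone, neither gene passed (adjusted p = 0.0929 for ALDH1A1 and 0.148 for ALDH1A3). Both calls held under the pool block, and 0.531% of all genes passed at day 17, against 0.339% without it.

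Marker levels of several cell types differed between the same arrays. Eye field and retina markers (5 of 6 measured) summed to 3924 to 4112 with bFGF and 5584 to 6114 without at day 17. Of these, MITF, a regulator of pigment cells, averaged 78.5 with bFGF and 205 without, and SIX6 123 and 347. The largest term was LHX2, which is also in the neural progenitor list, at 2663 with bFGF and 4073 without. SIX3 hardly differed, at 1112 and 1144, and RAX was dim, at 14.7 and 33.5. Endoderm and yolk sac markers (6 of 6 measured) summed to 256 to 378 with bFGF and 1078 to 1763 without. AFP averaged 127 with bFGF and 830.0 without, and TTR 101 and 389, while the endoderm factors SOX17 and FOXA2 averaged at most 50.7 in either group. Neuronal markers (5 of 6 measured) summed to 6708 to 11167 with bFGF and 10703 to 12591 without. The largest term, TUBB3, overlapped (3818 to 8028 with bFGF and 4006 to 8442 without), as did ELAVL4 (268 to 405 and 392 to 882). DCX (1143 to 1425 and 1645 to 3132), STMN2 (1044 to 1445 and 1947 to 2368) and ISL1 (79.2 to 134 and 165 to 323) were lower with bFGF without overlap. Neural crest and mesenchyme markers (8 of 8 measured) summed to 8226 to 9229 with bFGF and 7739 to 9558 without, overlapping ranges whose largest terms were COL1A1, ACTA2 and LUM. Its factors SNAI2 (420 to 645 with bFGF and 182 to 258 without), TWIST1 (91.1 to 412 and 39.1 to 68.2) and PRRX1 (227 to 426 and 48.0 to 70.1) were higher with bFGF without overlap. The list's other factors overlapped: SOX10 was at 25.6 to 32.6 with bFGF and 10.2 to 87.3 without, and TFAP2B at 51.9 to 302 and 70.0 to 124. The mean of SOX10 was lower with bFGF, at 30.0 against 45.7. The surface ectoderm list (5 of 6 measured) summed to 255 to 316 with bFGF and 432 to 676 without, with CDH1 at 46.5 to 68.8 and 129 to 266 and EPCAM at 204 to 228 and 289 to 335. Among neural progenitor markers (6 of 6 measured) PAX6 was at 1011 to 1499 with bFGF and 1744 to 2951 without, while their sums overlapped, at 18280 to 22100 and 19960 to 26003. The part of these cells in the fall of ALDH1A1 and ALDH1A3 was not tested.

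CYP26A1 went the other way at day 17, at 149, 154 and 161 with bFGF against 82.3, 86.0 and 107 without it. The treated pools were higher in 3 of 3 pool numbers and did not overlap the untreated ones, as for 3.96% of all genes in this direction. The change of 0.67 ± 0.21 did not pass in limma (adjusted p = 0.451), nor did it with the pool block (adjusted p = 0.0781). RARB read 32.8, 47.8 and 29.1 with bFGF, against 44.5, 78.7 and 42.1 without it (-0.41 ± 0.31, adjusted p = 1.00). DHRS3 (-0.44) and CRABP2 (-0.28) gave small estimates whose 95% intervals, -1.42 to 0.54 and -1.18 to 0.62, include changes of either sign.

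At day 10, after the first days of bFGF, 0 of the 9 genes passed in limma, with 2 at an unadjusted p under 0.05 (3.1% of all genes), where 0.0809% of all genes rose and 0.00506% fell (0.152% of all genes passed under the pool block, against 0.086%). The treated and untreated pools overlapped for all 9 genes, and lay wholly above or below each other for 3.14% and 2.97% of all genes. The 2 were again ALDH1A1 and ALDH1A3, named here after their values were seen. ALDH1A1 read 3.02, 106 and 19.2 with bFGF, against 61.1, 218 and 102 without it (-1.57 ± 0.56, adjusted p = 1.00). ALDH1A3 read 50.5, 117 and 63.7 with bFGF, against 111, 224 and 170.3 without it (-1.002 ± 0.31, adjusted p = 0.906). Both were lower with bFGF in 3 of 3 pool numbers, and pool 2 was the highest in each day 10 group. CYP26A1 was at 225, 253 and 352 with bFGF and 239.7, 261 and 328 without (-0.01, 95% interval -0.45 to 0.43), and RARB at 80.6, 150.2 and 136 with bFGF and 94.9, 181 and 222 without (-0.37 ± 0.31).

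The difference between the day 17 and day 10 bFGF effects was then tested. It passed for 0 of the 9 genes in limma, with 1 at an unadjusted p under 0.05 (CYP26A1, 0.68 ± 0.29, named after its value was seen). Of all genes 0% passed, and 3.19% had an unadjusted p under 0.05. For ALDH1A1 the difference was -1.40 (95% interval -3.07 to 0.26), and for ALDH1A3 -0.91 (95% interval -1.85 to 0.03). The fall of these enzymes is therefore not shown to differ between the days.

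The time course under bFGF was not tested, but its values can be set side by side. From day 6 to bFGF-treated day 10, ALDH1A3 (means of 77.1 at day 10 and 26.96 at day 6) and RARB (122 and 46.6) were higher without overlap, where 14.8% of all genes were. Relative to their day 6 means, ALDH1A2 (0.102), CYP26A1 (0.0722), RDH10 (0.609) and DHRS3 (0.316) were lower, where 12.3% of all genes were. From bFGF-treated day 10 to day 17, RDH10 reached 3.76 times its day 10 mean without overlap, as 6.06% of all genes were higher. CYP26B1 was too dim at both days to compare. CYP26A1 (0.560), CRABP2 (0.422) and RARB (0.299) were lower without overlap, where 5.98% of all genes were, and ALDH1A2 was lower too, at 2.28 to 8.58 at day 17, against 26.5 to 38.9 at day 10. ALDH1A1 and ALDH1A3 overlapped, with ratios of 1.16 and 0.970.

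Across the whole untreated course, from ES cells to day 17, no test was made either. ALDH1A1 averaged 534 at day 17 and 14.0 in ES cells, a level too dim for an exact ratio. ALDH1A3 (2.77 times the ES mean), RDH10 (2.73 times) and RARB (55.1 at day 17 and 27.2 in ES cells) were also higher without overlap, where 19.3% of all genes were. CYP26A1 (0.0329 times the ES mean) and DHRS3 (0.103 times) were lower without overlap, where 14.3% of all genes were. CRABP2 overlapped, and ALDH1A2 and CYP26B1 were dim in both groups.

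In the order of the 6 group means, neighbouring groups overlapped for most genes. ALDH1A1 ran from untreated day 17 through untreated day 10 to bFGF-treated day 17 with no overlap, and the 3 lower groups overlapped with their neighbours. For ALDH1A2 only day 6 stood clear of its neighbour. For ALDH1A3 the highest group, untreated day 17, and the lowest, day 6, each stood clear. In CYP26A1 only the day 10 groups overlapped each other. RDH10 split between the day 17 groups and the rest, DHRS3 between ES cells with day 6 and the rest, and RARB between the day 10 groups and the rest, whereas CRABP2 and CYP26B1 showed no such break.

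Other genes of the route were followed from a list of 29, of which 25 were measured. In the 3 untreated steps 1 rose at day 6, 1 fell at day 10 and 2 rose at day 17, where 3.85%, 6.37% and 1.99% of all genes passed in either direction. RXRA, the partner of the retinoic acid receptors, averaged 417 ± 98.3 at day 6 and 184 ± 77.9 in ES cells (SD, n = 3 each; 1.15 ± 0.26, adjusted p = 0.0157). LRAT, which stores retinol as esters, averaged 18.6 ± 8.78 at day 10 and 111 ± 40.3 at day 6 (-1.86 ± 0.34, adjusted p = 0.00220). RBP4, the carrier of retinol in blood, averaged 170.5 ± 79.1 at day 17 and 15.7 ± 14.0 at day 10 (2.56 ± 0.46, adjusted p = 0.00701). CYP1B1, a cytochrome P450 that can oxidise retinol, averaged 572 ± 442 at day 17 and 119 ± 46.4 at day 10 (1.91 ± 0.41, adjusted p = 0.0220).

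With bFGF, 0 of the 25 passed at day 10 (2 at an unadjusted p under 0.05 in limma, as were 3.1% of all genes). At day 17 only CYP1B1 did, where 0.339% of all genes passed, falling to 77.2 ± 21.9 against 572 ± 442 without bFGF (-2.42 ± 0.41, adjusted p = 0.0148). RBP4 averaged 42.1 with bFGF and 170.5 without at day 17 (-1.61 ± 0.46, adjusted p = 0.357). The median log2 change of the 25 genes lay between -0.16 and 0.19 over the 6 comparisons, and that of all genes between -0.02 and 0.09.

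Genes known to respond to retinoic acid formed a second list of 27, with 18 measured. At day 6, 3 rose and 1 fell, where 2.19% of all genes rose and 1.66% fell. At day 10, 6 rose and 1 fell, where 3.73% rose and 2.64% fell. MEIS2, of the same family as MEIS1, averaged 572 ± 118 at day 6 and 62.0 ± 21.5 in ES cells (2.94 ± 0.27, adjusted p = 4.08e-06). NR2F1, an orphan nuclear receptor, rose at day 6 (2.32) and again at day 10 (2.46), as did MEIS1, a homeobox cofactor (1.502 and 2.01). NRIP1, a corepressor of nuclear receptors, averaged 2398 ± 574 at day 10 and 482 ± 167 at day 6 (2.30 ± 0.33, adjusted p = 0.000294), and TGM2, a transglutaminase, rose as well (2.38). RARRES2, which encodes chemerin, fell at both steps (-1.66 and -2.38).

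In the later comparisons 0 of the 18 passed in limma: 2 had an unadjusted p under 0.05 from day 10 to day 17, 2 with bFGF at day 10 and 5 with bFGF at day 17, beside 9.76%, 3.1% and 4.96% of all genes. The median log2 change of the 18 was 0.18 at day 6 and 0.56 at day 10, beside -0.00 and 0.09 over all genes. The 7 HOX genes measured were HOXB1, HOXA2, HOXB2, HOXB3, HOXB4, HOXD4 and HOXB5, which set positional identity along the hindbrain and spinal cord. Their group means ran from 2.00 (HOXA2 in ES cells) to 93.7 (HOXB2 in bFGF-treated day 17 cells), and 0 of them passed in any of the 6 comparisons.

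**Figure D4:**
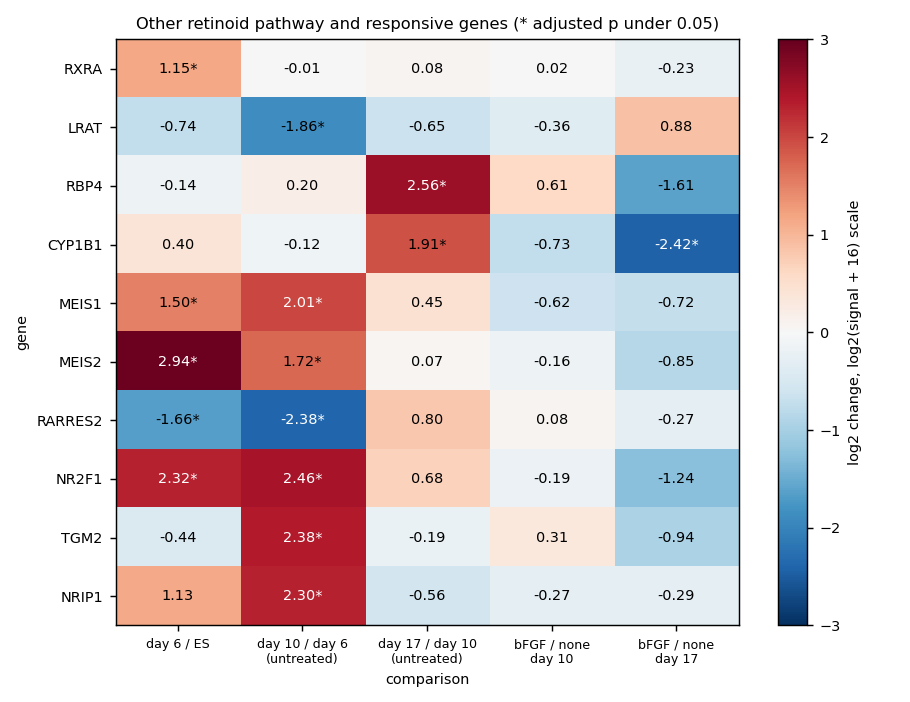
log2 changes on the log2(signal + 16) scale of the listed retinoid pathway and retinoic acid responsive genes named in the text, in 5 comparisons, each the later or bFGF-treated group over the other; asterisks mark an adjusted p under 0.05. MEIS1, MEIS2 and NR2F1 have asterisks at both day 6 and day 10, and CYP1B1 has opposite signs in the day 17 and bFGF day 17 columns.

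For the 8 measured genes whose mean signal reached 100 in some group, the nearest patterns were looked up over the 18 arrays among 9921 other genes with such a mean. The measure is Pearson's r of log2(signal + 16), and it describes these arrays, which share their groups and pools. Nearest to ALDH1A1 were TYRP1 (0.93), an enzyme of melanin synthesis, HOMER2 (0.91) and the tight junction protein CLDN1 (0.91). CLDN1 (0.87) was also nearest to ALDH1A3, followed by TCAIM (0.86) and ALDH1A1 itself (0.85). ALDH1A2 was closest to VWF (0.90), a glycoprotein of blood clotting, CBLB (0.90) and PKDCC (0.89).

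CYP26A1 ran closest to ZFP42 (0.98), a pluripotency marker, MTA3 (0.97) and LINC00545 (0.97). RDH10 ran with ABAT (0.93), which degrades GABA, NKX2-1 (0.92), a factor of the ventral forebrain, and INSM1 (0.91), a factor of differentiating neurons and endocrine cells. DHRS3 was nearest to CBR1 (0.95), SLC7A3 (0.94) and KRTCAP3 (0.94). For CRABP2 these genes were PLEKHB1 (0.91), SLC6A8 (0.89) and ZDHHC9 (0.88), and for RARB LMAN1 (0.93), MBIP (0.87) and DHX32 (0.87).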

How the data were processed

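Total RNA pools were measured on one-colour arrays with 54675 probe sets. The deposited values are linear intensities that the authors had scaled: the 2% trimmed mean was 150.016 to 150.026 on each array, so no further scaling was applied. The summarisation software is not given in the sources used here. Probe sets naming 1 gene (41097, by the platform annotation) gave 19775 genes: those ending in _x_at were dropped where another existed, and the highest mean log2(signal + 16) was kept. limma 3.58.1 in R 4.3.3 was fitted with 1 mean per group over all 18 arrays (12 residual degrees of freedom), with two-sided tests, Benjamini-Hochberg adjustment over all genes and a threshold of 0.05. The fit was tested on simulated data with independent noise on each array. That check does not cover the correlation between pools described below. The number of arrays limits the precision.

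Groups and pool numbers came from the titles, except that 1 ES pool has no number in its title, was called pool 1 by sample order, and had a block level of its own. Deviations of same-numbered arrays correlated at 0.317 to 0.668 in each of the 3 comparisons among neural epithelial groups, so the numbers were taken to pair those arrays. Pool 2 of these groups is also the array with raised low signals, so shared cultures and shared processing cannot be told apart. For untreated day 10 against day 6 pool 1 gave 0.0749, so the numbers were not taken to pair the arrays. For day 6 against ES cells the correlations were 0.209 to 0.383, but the labels number only 2 of the 3 pairs, and pool 2 of ES cells and of day 6 differ in passages, so the pairing is partial and the blocked value is given where it changes a call.

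All 10 genes were named in every comparison, with up to 4 called genes per other list, comparison and direction, and the 3 nearest patterns of each gene. The genes and lists were chosen with earlier results of these data known. Results were recomputed with quantile scaling, with pseudocounts of 1 and 64, for the upper 60% of genes, on the compared groups alone, with probe sets averaged, with the pool block, and without the 4 arrays or each array. The list counts without the 4 arrays were added after seeing the data.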

Additional observations from a re-analysis of the deposited data

How the results depend on the processing

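Of the 12 calls on the measured genes, 4 held under every alternative run (ALDH1A2 at day 6 and at day 10, ALDH1A3 and CYP26A1 at day 10), and all 12 kept their direction. The genes past the test from day 10 to day 17 without bFGF numbered 393, against 226 with a pseudocount of 1, 34 on the compared groups alone, 704 with the replicate block and 229 without the 4 arrays. With bFGF at day 10 they numbered 17, against 2, 0, 30 and 4 under the same settings and 9 with probe sets averaged. With bFGF at day 17 they numbered 67, against 20 with a pseudocount of 1, 0 on the compared groups alone and 105 with the block. From day 6 to day 10 they numbered 1259, against 647 on the compared groups alone and 2339 with the block. The difference of the bFGF effects had 0, against 1 with a pseudocount of 64 and 1 with the block. These fits differ in the samples or spread they use, and the cause was not tested.

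Of the retinoic acid genes, 2 passed with bFGF at day 17, against 0 with a pseudocount of 1 (ALDH1A1 adjusted p = 0.650, ALDH1A3 0.0585), 0 on the compared groups alone (0.0929 and 0.148), 1 with probe sets averaged and 1 without the 4 arrays. At day 6, 2 passed, against 1 with probe sets averaged and 1 in the upper 60% of genes, which leaves out ALDH1A2 and CYP26B1. From day 10 to day 17, 3 passed, against 0 on the compared groups alone. The block for the pool number changed no call on these genes in the comparisons where numbers were taken to pair the arrays. At day 6, where the pairing is partial, CRABP2 passed with it (1.41, adjusted p = 0.0319), and ALDH1A1 turned to 0.11.

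Leaving out 1 array at a time gave 2 to 2 retinoic acid genes and 462 to 615 genes in all at day 6, 4 to 6 and 842 to 1033 at day 10, and 2 to 3 and 206 to 311 at day 17. For bFGF it gave 0 to 0 and 3 to 13 at day 10, 0 to 1 and 22 to 45 at day 17, and 0 to 0 and 0 to 1 for the difference of its effects.

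The sign turned only for changes that had not passed. Without the 4 arrays CRABP2 was 0.38 and CYP26B1 -0.14 from day 6 to day 10. With bFGF at day 10 CYP26A1 was 0.0054 and DHRS3 0.061, at day 17 CYP26B1 was -0.10 and DHRS3 0.062, and in the difference CYP26B1 was -0.71, DHRS3 0.00089 and RARB 0.087. Quantile scaling gave 0.12 for CRABP2 at day 10, and in the difference -0.013 for CYP26B1 and 0.022 for RARB. In the difference a pseudocount of 1 gave -0.26 for CYP26B1, a pseudocount of 64 gave 0.048 for RARB, and averaged probe sets gave 0.10 for RARB. Averaged probe sets also gave -0.17 for CYP26B1 with bFGF at day 10, and 0.0096 for ALDH1A2 and -0.045 for CYP26B1 with bFGF at day 17.

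Under leave-one-out, ALDH1A1 ran from -0.52 to 0.064 at day 6, and at day 10 CYP26B1 ran from -0.14 to 0.43 and CRABP2 from -0.29 to 0.38. With bFGF at day 10 CYP26A1 ran from -0.19 to 0.12, CYP26B1 from -0.11 to 0.47, DHRS3 from -0.66 to 0.22 and CRABP2 from -0.19 to 0.48. With bFGF at day 17 CYP26B1 ran from -0.056 to 0.43, RDH10 from -0.14 to 0.0077, DHRS3 from -0.73 to 0.030 and CRABP2 from -0.68 to 0.10. In the difference CYP26B1 ran from -0.29 to 0.34, DHRS3 from -0.66 to 0.28 and RARB from -0.29 to 0.27. Signals of CYP26B1, and of ALDH1A2 outside day 6 and day 10, are too low to be told from background here. Leaving out the 4 arrays changed the count of the responsive list at day 6 to 5 of 18, against 4, and no other list count.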
